A study of Mus musculus with 57 samples.

Results

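Triglyceride synthesis genes were followed in adipose tissue of mice that carry the R707W change of mitofusin 2 (Mfn2), a protein of the outer mitochondrial membrane. The genes come from a list of symbols, and all 10 were found among the 52853 genes of the count tables. They are Gpam, Gpat3, Gpat4, Agpat2, Agpat3, Lpin1, Dgat1, Dgat2, Mogat2 and Bscl2. RNA was sequenced from 41 mouse tissue samples in 6 groups, with 6 WT and 6 KI mice for brown adipose tissue (BAT) on a high-fat diet (HFD), 8 and 8 for inguinal white adipose tissue (inguinal WAT) on HFD, and 7 WT and 6 KI mice for inguinal WAT on chow. KI mice were homozygous for the R707W allele made with CRISPR-Cas9, which also carries a silent change that adds an EcoRV site, and WT mice were their littermates. All mice were male, on a C57BL/6J background, and were kept on HFD (45% of energy from fat) or chow for 6 months. Per the study's methods, mice were fasted for 6 hours before tissues were taken. The sample labels put the start of the diets at 5 weeks of age, while figure legends of the study put it at 7 weeks. The line goes back to 1 founder. The allele is in every cell of the body, and whole tissue was sequenced, so the values are not of adipocytes alone. The sources used here do not say whether 1 set of HFD-fed mice gave both depots, and tissue and diet each coincide with a separate count table, so a sequencing batch cannot be told apart from them.

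Adipocytes store fatty acids as triglyceride, which is built on glycerol-3-phosphate by an ordered series of enzymes in the membranes of the endoplasmic reticulum and mitochondria. Glycerol-3-phosphate acyltransferases (Gpam, Gpat3 and Gpat4) add the first acyl chain, and acylglycerolphosphate acyltransferases (Agpat2 and Agpat3) add the next to make phosphatidate. Lipin 1 (Lpin1) removes the phosphate to give diacylglycerol, and Dgat1 and Dgat2 add the last acyl chain. Mogat2 makes diacylglycerol from monoacylglycerol and is best known from the intestine. Bscl2 encodes seipin, which is not an enzyme and organizes the sites where lipid droplets bud. Loss of AGPAT2 or of seipin causes congenital generalized lipodystrophy in humans, and mice without lipin 1 are lipodystrophic.

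The genes lie at separate loci apart from one pair. Agpat2, the gene with the largest difference of the KI effect between diets, is on the minus strand of chromosome 2 (26593057 to 26604417, GRCm38), and Bscl2 is on the plus strand of chromosome 19 (8837467 to 8848683). Gpam is on the minus strand of chromosome 19 (55069734 to 55099451), Gpat3 on the plus strand of chromosome 5 (100845713 to 100899102) and Gpat4 on the minus strand of chromosome 8 (23171265 to 23208346). Agpat3 (chromosome 10, 78269178 to 78352489), Lpin1 (chromosome 12, 16535669 to 16610966) and Dgat1 (chromosome 15, 76502015 to 76511953) are on minus strands. Dgat2 (99153658 to 99182719) and Mogat2 (99219084 to 99238619) are neighbours on the minus strand of chromosome 7, with 36364 bases between them. Of the 10 genes, 6 had a RefSeq promoter window for GRCm38.p6, 9 windows in all. The 3 windows whose start is also the gene start in GENCODE vM21, and which hold no annotated exon, are shown to let the start of the most changed gene be read beside those of a lipodystrophy gene and an acyltransferase gene that moved less on HFD. Each is the 250 bases before the start, in the direction of the gene, with matches to a searched motif in capitals.
Agpat2, chr2:26604418-26604667, minus strand: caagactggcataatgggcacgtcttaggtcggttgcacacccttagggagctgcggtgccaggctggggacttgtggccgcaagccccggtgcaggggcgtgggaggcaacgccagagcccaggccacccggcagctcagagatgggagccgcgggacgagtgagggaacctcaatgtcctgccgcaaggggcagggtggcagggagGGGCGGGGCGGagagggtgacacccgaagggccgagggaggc
Lpin1, chr12:16610967-16611216, minus strand: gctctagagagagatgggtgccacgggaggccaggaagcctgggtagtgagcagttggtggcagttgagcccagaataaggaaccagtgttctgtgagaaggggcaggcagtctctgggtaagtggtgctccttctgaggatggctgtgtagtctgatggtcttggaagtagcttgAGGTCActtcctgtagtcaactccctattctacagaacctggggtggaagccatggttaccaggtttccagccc
Gpam, chr19:55127239-55127488, minus strand: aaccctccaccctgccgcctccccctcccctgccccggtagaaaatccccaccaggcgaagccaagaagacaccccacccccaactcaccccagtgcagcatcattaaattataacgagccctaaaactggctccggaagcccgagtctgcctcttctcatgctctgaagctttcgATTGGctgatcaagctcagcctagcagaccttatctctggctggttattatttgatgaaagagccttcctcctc
Motifs were searched on both strands. The Agpat2 window, with 69.2% G and C, held 2 overlapping matches to the GC box GGGCGG, which 32.7% of the 32851 RefSeq windows of this length hold. The Lpin1 window had 54.8% G and C and 1 match to the nuclear receptor motif AGGTCA (14% of windows). The Gpam window had the same share of G and C and 1 match to the CCAAT box (33.8% of windows), read on the opposite strand. None of the 3 held the E-box CACGTG (6.02%), TATAAA (12.4%) or TTGCGCAA (0.164%). The start of the Gpam window lies upstream of the Gpam gene as the count tables give it, so reads from that start were counted only where they reached the listed interval.

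Total counts per mouse were 8042591 to 10522554 in BAT, 17572752 to 25680411 in inguinal WAT on HFD and 8668279 to 11720458 on chow. Levels are CPM, counts scaled to library size, on one TMM scale over all 41 samples, and CPM per kilobase (kb) of gene model wherever genes are compared with each other. The brown fat gene Ucp1 was at 4164 to 8515 CPM in BAT and at most 1.77 CPM in inguinal WAT. The R707W codon cannot be read from gene counts, so the genotype was taken from the labels. A total of 10 libraries stood apart by summed markers of other tissues. Muscle markers passed 2000 CPM in BAT of WT mice 1 and 2, in inguinal WAT on HFD of KI mice 3 and 5 and on chow of KI mouse 4 (70726 CPM). Lymphocyte markers passed 300 CPM on HFD in WT mice 2 and 6 and KI mouse 2, and on chow in KI mouse 3. Epithelial markers passed 100 CPM on chow in WT mouse 4. Results are given without these 10 libraries where the call changed.

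In inguinal WAT of HFD-fed mice, 3 of the 10 genes were called lower in KI than in WT mice at an adjusted p below 0.01 (edgeR's quasi-likelihood test over 16471 genes), where 5.24% of all genes were. They were Agpat2, Bscl2 and Dgat1, which differed by 2.00-fold, 1.88-fold and 1.35-fold. No member was called higher, where 6.21% of all genes were, although 2 had an unadjusted p below 0.05 in that direction and DESeq2 called 1 of them, Agpat3. Over the 10 genes the median was -0.25 on the log2 scale, against 0.01 over all genes tested. The 3 glycerol-3-phosphate acyltransferases and Lpin1 were not called.

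**Figure D1:**
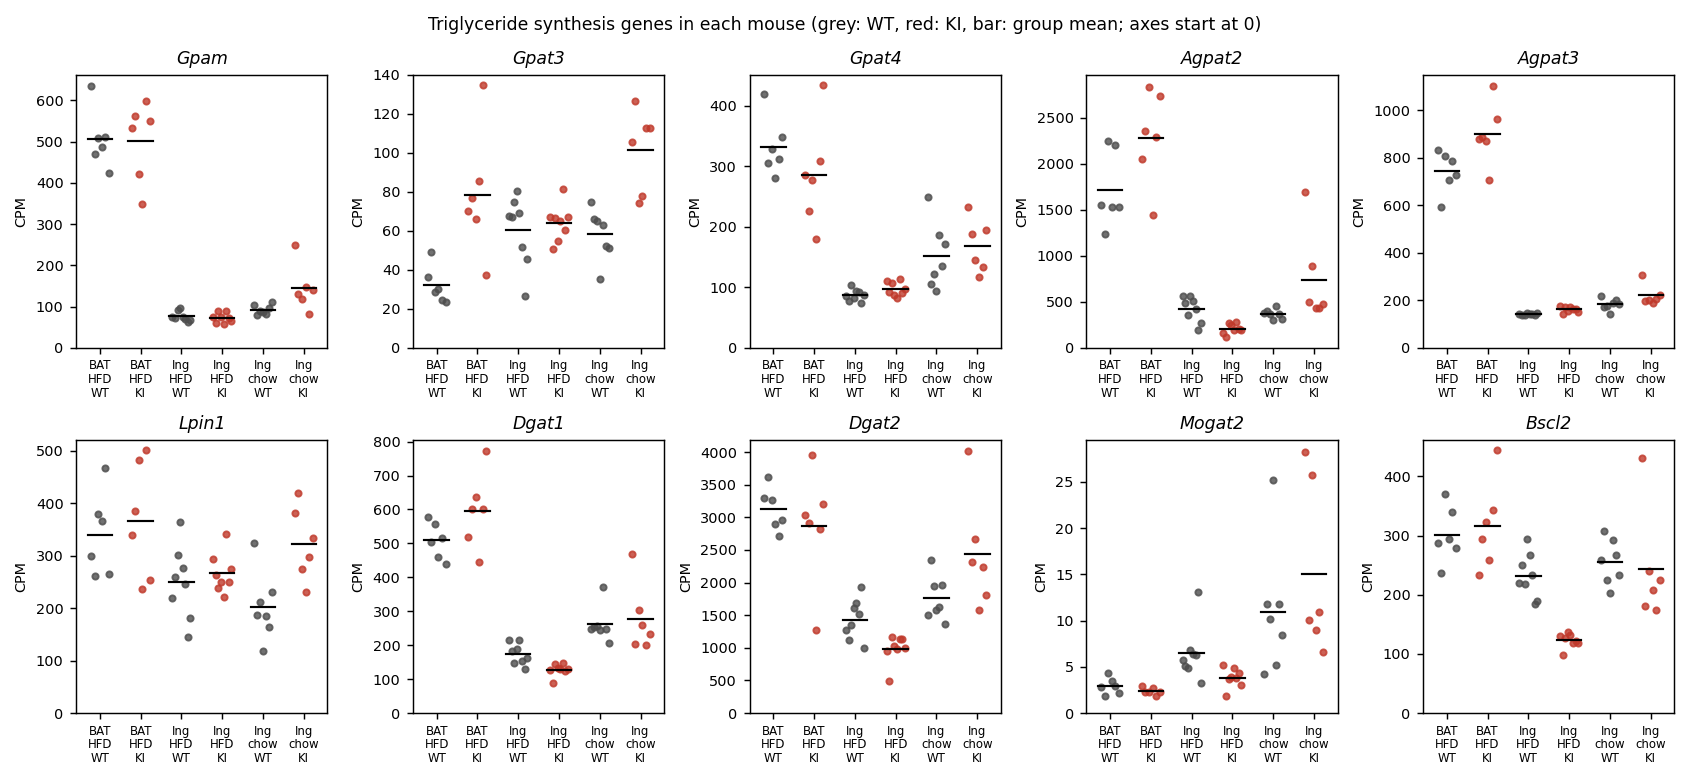
CPM (y axis, starting at 0) of each of the 10 genes in every mouse, for 6 groups of 6 to 8 mice (grey WT, red KI, bars group means, Ing for inguinal WAT). In inguinal WAT on HFD every KI mouse lies below every WT mouse for Bscl2. Chow-fed KI mouse 1 is the highest of its group for Agpat2, Agpat3, Gpam, Dgat1, Dgat2, Mogat2, Gpat4 and Bscl2.

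Agpat2 was measured on HFD at 192 CPM in the lowest, 453 CPM in the median and 558 CPM in the highest WT mouse. In KI mice it ran from 119 CPM through a median of 201 CPM to 275 CPM. The ranges overlapped through WT mice 7 and 8, at 192 and 268 CPM, while the other 6 WT mice lay above every KI mouse. The log2 fold change was -1.0 (standard error, SE, 0.213, edgeR adjusted p = 0.00268), and leaving out any 1 mouse kept the call, with values from -1.11 to -0.92. Without the 5 libraries with markers of other tissues it was -0.89 and no longer called (adjusted p = 0.0329). Egfl7 on the opposite strand shares 64 exonic bases with Agpat2. It had 2422 to 9372 counts per mouse over all groups, against 2924 to 19484 for Agpat2.

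Bscl2 ranged on HFD from 183 to 294 CPM in WT mice, with a median of 227 CPM. In KI mice it lay between 98.4 and 137 CPM with a median of 125 CPM. All 8 KI mice were below all 8 WT mice, the only member with such a gap, while 4.53% of all genes tested showed one in either direction. The log2 fold change was -0.91 (SE 0.0950, edgeR adjusted p = 1.65e-06). The call held in each of the 16 fits without 1 mouse (-0.95 to -0.86) and under every other alternative (-0.92 to -0.86). Gng3 on the opposite strand shares 398 exonic bases with Bscl2 and had 5 to 96 counts per mouse, against 1673 to 6191 for Bscl2. AC129217.1 on the same strand shares 239 exonic bases with Bscl2, and no counts were available for it.

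Dgat1, one of the enzymes of the last step, ranged from 131 to 215 CPM in WT mice (median 172 CPM) and from 89.7 to 149 CPM in KI mice (median 130.3 CPM). Its ranges overlapped, and 4 of 8 KI mice lay below every WT mouse. The log2 fold change was -0.44 (SE 0.110, edgeR adjusted p = 0.00799). The call was lost in 10 of 16 fits that left out 1 mouse (WT mice 1, 2, 4, 5 and 8, and KI mice 1, 4, 5, 7 and 8), at adjusted p up to 0.0203, without the libraries with other markers (-0.41, adjusted p = 0.0371) and in 1 fit of all 6 groups (adjusted p = 0.0266).

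The other enzyme of that step, Dgat2, was at 995 to 1929 CPM in WT (median 1431 CPM) and at 491 to 1169 CPM in KI mice (median 1009 CPM). Its log2 fold change of -0.54 did not pass (SE 0.157, edgeR adjusted p = 0.0204), although DESeq2 called it. It also passed in an edgeR fit that blocked on mouse number (adjusted p = 0.00757). Mogat2 was the rarest member, with 55 to 397 counts in these mice, and its log2 fold change of -0.75 did not pass either (adjusted p = 0.0317). Its highest WT value, 13.1 CPM in mouse 7, coincided with the highest Dgat2 value, 1929 CPM.

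Agpat3 stood closest above the threshold, at a log2 fold change of 0.20 (SE 0.0520, edgeR adjusted p = 0.0103). The 8 WT mice lay between 138 and 147 CPM and the KI mice between 144 and 175 CPM, with 7 of 8 KI mice above every WT mouse. Without KI mouse 2, the lowest of its group, it was called (adjusted p = 0.00511). It was also called where every mouse had to have at least 10 counts (adjusted p = 0.00834). Gpam was at 62.8 to 97.1 CPM in WT and 57 to 89.2 CPM in KI mice, with a difference of -0.06 on the log2 scale (95% interval -0.28 to 0.16). Gpat3 differed by 0.09 (-0.27 to 0.46), Gpat4 by 0.17 (0.00 to 0.35) and Lpin1 by 0.10 (-0.21 to 0.41).

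**Figure D2:**
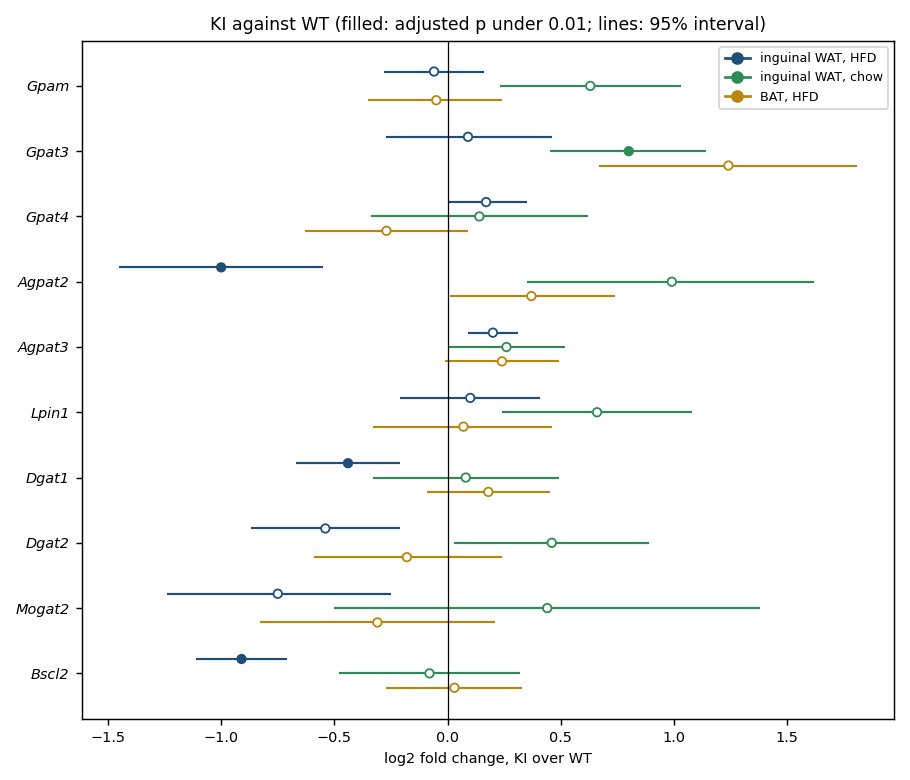
Log2 fold change of KI over WT (x axis) for each gene (y axis) in inguinal WAT on HFD (blue), inguinal WAT on chow (green) and BAT on HFD (gold), with lines for the 95% interval and filled points for an adjusted p below 0.01. Filled points are Agpat2, Dgat1 and Bscl2 in inguinal WAT on HFD and Gpat3 in inguinal WAT on chow. In inguinal WAT Agpat2 lies at -1.0 on HFD and 0.99 on chow.

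Adipocyte markers moved both ways in the same samples. Of 12 white adipocyte markers, 2 were called higher (Lipe and Pnpla2) and 3 lower (Adipoq, Lep and Retn), with a median log2 fold change of -0.13, and Lipe had the highest (0.54) and Retn the lowest (-1.05) value. Their summed level ran from 49625 to 70410.0 CPM in WT and from 41855 to 64024 CPM in KI mice, and no marker was at 0. In these bulk samples fewer cells of a type and less RNA per cell cannot be told apart. Of 8 markers each, macrophages had 1 called lower (Itgax, -1.44) and fibroblasts 1 called lower (Dpt, -0.75). Of the 8 endothelial, 8 lymphocyte and 8 muscle markers none was called by edgeR, with 3, 0 and 0 at an unadjusted p below 0.05. Of 6 brown adipocyte markers tested, Cidea (1.55) and Cox8b (1.04) were called higher and Pank1 (-0.74) and Prdm16 (-0.59) lower, and all 6 had an unadjusted p below 0.05. Their median log2 fold change was 0.56, and the summed level over 10 markers was 34.4 to 65.6 CPM in WT and 43 to 81.2 CPM in KI mice. The part of these markers in the lower Agpat2, Bscl2 and Dgat1 levels was not tested.

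On chow, where the same tissue was compared without the high-fat diet, 9 of the 10 genes had positive log2 fold changes but 1 passed the test. Gpat3 was called, higher in KI mice, where 1.96% of the 14629 tested passed upwards and 1.27% downwards. The median of the 10 genes was 0.45, against -0.01 over all genes, and without KI mouse 1 it was 0.235, with 8 positive values. No member was called lower by edgeR or DESeq2 and none had an unadjusted p below 0.05 in that direction. No member had groups that lay fully apart, as 4.22% of all genes had.

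Gpat3, an acyltransferase of the endoplasmic reticulum, ranged on chow from 35.2 to 74.7 CPM in WT mice (median 62.7 CPM) and from 74.2 to 126 CPM in KI mice (median 109 CPM). All KI mice but 1 lay above every WT mouse, and KI mouse 3 at 74.2 CPM was just under WT mouse 1 at 74.7 CPM. The log2 fold change was 0.80 (SE 0.163, edgeR adjusted p = 0.00803), a 1.74-fold higher level. The call was kept in 4 of 13 fits without 1 mouse and lost without WT mouse 2, 3, 5, 6 or 7 or KI mouse 1, 2, 5 or 6, at adjusted p up to 0.0204 and log2 fold changes of 0.71 to 0.87 over the 13 fits. It was also lost with no filter on low counts (adjusted p = 0.0103). An antisense gene, 4930458D05Rik, shares 1052 exonic bases with Gpat3 and had 8 to 200 counts per mouse, against 155 to 2171 for Gpat3.

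Agpat2 on chow ran from 299 to 452 CPM in WT mice (median 368 CPM). In KI mice the lowest was 431 CPM, the median 488 CPM and the highest, mouse 1, 1689.6 CPM. Of the 6 KI mice, 4 lay above every WT mouse. The log2 fold change of 0.99 did not pass (SE 0.297, edgeR adjusted p = 0.0548), it fell to 0.58 without KI mouse 1 (adjusted p = 0.0771), and DESeq2 called it.

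Lpin1 and Gpam also fell short of the threshold. Lpin1 was at 119 to 325 CPM in WT and 231 to 419 CPM in KI mice, with a log2 fold change of 0.66 (SE 0.196, edgeR adjusted p = 0.0501). Gpam, the mitochondrial acyltransferase, was at 80.4 to 111 CPM in WT and 82.7 to 248 CPM in KI mice, and its 0.63 (adjusted p = 0.0510) fell to 0.43 without KI mouse 1. Dgat2 ran from 1360.1 to 2339 CPM in WT and from 1582 to 4011 CPM in KI mice, a log2 fold change of 0.46 (adjusted p = 0.168).

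Bscl2 and Dgat1, lower in inguinal WAT of KI mice on HFD, were not called on chow. Bscl2 was at 202 to 308 CPM in WT and 174 to 431 CPM in KI mice, at -0.08 on the log2 scale (95% interval -0.48 to 0.32). Dgat1 was at 207 to 372 CPM and 201 to 469.9 CPM, at 0.08 (-0.33 to 0.49). Without KI mouse 1 these were -0.30 and -0.11. Gpat4 differed by 0.14 (-0.34 to 0.62), Agpat3 by 0.26 (0.00 to 0.52) and Mogat2 by 0.44 (-0.50 to 1.38).

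Some brown adipocyte markers differed between the genotypes on chow. The summed level over 10 such genes was 59.3 to 146 CPM in WT and 168 to 891 CPM in KI mice. It was highest in KI mouse 1, which also had the highest Agpat2. In KI mice the median of this sum was 428 CPM, beside medians of 161 CPM for Cidea and 193 CPM for Cox8b. Of the 6 that passed the filter, Cidea (3.02) and Cox8b (2.41) were called higher, and Ppargc1a had the lowest log2 fold change (-0.70, adjusted p = 0.238). Ucp1 itself was at most 0.895 CPM in these mice. Of 12 white adipocyte markers 1 was called lower, Retn (-1.23), and their median log2 fold change was -0.09. Of 8 fibroblast markers 1 was called lower, Dpt (-1.29), with a median of -0.32. The 5 muscle markers tested had a median of 6.02 and an unadjusted p below 0.05 each, none was called by edgeR, and their sum was 70726 CPM in KI mouse 4 against 41.2 to 322 CPM in the other KI mice. The part of these markers in the chow values was not tested.

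In BAT none of the 10 genes was called by edgeR, where 1.36% of the 13267 tested passed upwards and 0.475% downwards. Gpat3 and Agpat2, both higher in KI mice, were the 2 members with an unadjusted p below 0.05, and DESeq2 called Gpat3. The median log2 fold change was 0.05, against -0.01 over all genes, and no member had groups fully apart, as 3.69% of all genes had. Gpat3 was at 23.6 to 49.2 CPM in WT (median 29.4 CPM) and at 37.3 to 135 CPM in KI mice (median 73.4 CPM), with 5 of 6 KI mice above every WT mouse. Its log2 fold change was 1.24 (SE 0.266, edgeR adjusted p = 0.0149). It passed with DESeq2 (adjusted p = 6.35e-05), without KI mouse 6, without WT mouse 2, and without WT mice 1 and 2, whose muscle markers stood apart (1.53, adjusted p = 0.007).

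Agpat2 in BAT ran from 1231 to 2242 CPM in WT and from 1439.7 to 2831 CPM in KI mice, at 0.37 on the log2 scale (95% interval 0.01 to 0.74, adjusted p = 0.192 from edgeR). Bscl2 was at 236 to 369.5 CPM and 233 to 445 CPM, a log2 fold change of 0.03 (-0.27 to 0.33). The KI sample with the least Dgat2, mouse 4 at 1268 CPM, was also lowest for Gpam, Gpat4, Agpat2, Agpat3, Lpin1 and Dgat1. Of 10 brown adipocyte markers none was called by edgeR, 3 had an unadjusted p below 0.05, and their median log2 fold change was 0.30. Their sum was 12829 to 18529 CPM in WT and 14736 to 23234 CPM in KI mice. Of 8 fibroblast markers Dpt (-1.37) and Pi16 (-1.62) were called lower, 5 had an unadjusted p below 0.05, and the median was -0.74. Of 12 white adipocyte markers Retn was called lower (-1.84), 6 had an unadjusted p below 0.05, and the median was -0.34. The part of these markers in the BAT values was not tested.

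Whether the KI effect differed between the 2 diets was tested as an interaction in one fit of the 4 inguinal groups. Agpat2 alone was called among the 10 genes, where 0.632% of 17400 genes were called either way. The KI effect on Agpat2 was 1.97 lower on HFD than on chow on the log2 scale (difference -1.97, SE 0.376, adjusted p = 0.00422 from edgeR). Without chow-fed KI mouse 1 it was -1.54 and still called (adjusted p = 0.00646), and all 29 fits without 1 mouse kept the call. It was not called without the 8 libraries with markers of other tissues (-1.91, adjusted p = 0.0426).

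Of the 10 differences 9 were negative, with a median of -0.68 against 0.02 over all genes. The 95% interval of 8 did not include 0. These intervals are not adjusted for the number of genes tested, and the share of all genes with such an interval was not computed. The 10 differences also share the same mice, so they are not independent of each other. Bscl2 (-0.82, adjusted p = 0.0262) and Dgat2 (-0.98, adjusted p = 0.0386) did not pass with edgeR but were called by DESeq2. Bscl2 was also called without chow-fed KI mouse 5 (adjusted p = 0.00968). Without chow-fed KI mouse 1 the Bscl2 difference was -0.58 (adjusted p = 0.0493 from edgeR) and that of Dgat2 -0.78 (adjusted p = 0.104). The other differences without that mouse were -0.91 for Mogat2, -0.68 for Gpat3, -0.49 for Lpin1, -0.46 for Gpam and -0.29 for Dgat1. Those of Agpat3 (0.07) and Gpat4 (0.16) were then positive. Gpat4 (0.05, 95% interval -0.43 to 0.52) and Agpat3 (-0.05, -0.31 to 0.21) had the smallest differences.

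The KI effect was also compared between BAT and inguinal WAT on HFD, with the tissues taken as independent samples. Among the 10 genes 2 were called, where 2.82% of 17214 genes were called either way. The effect on Agpat2 was 1.41 higher in BAT (SE 0.299, edgeR adjusted p = 0.00326) and that on Bscl2 was 0.98 higher (SE 0.175, adjusted p = 0.000613). Both held in all 28 fits without 1 mouse. In 1 fit of all 6 groups 1 of these 2 calls was lost. Neither was called without the libraries with other markers (1.18, adjusted p = 0.0519, and 0.85, adjusted p = 0.0208). Gpat3 (1.19, adjusted p = 0.0216) and Dgat1 (0.66, adjusted p = 0.0172) missed the threshold with edgeR and passed it with DESeq2. Each also passed in fits without inguinal WT mouse 7, Gpat3 without BAT WT mouse 2 or KI mouse 6, and Dgat1 without BAT KI mouse 4.

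**Figure D3:**
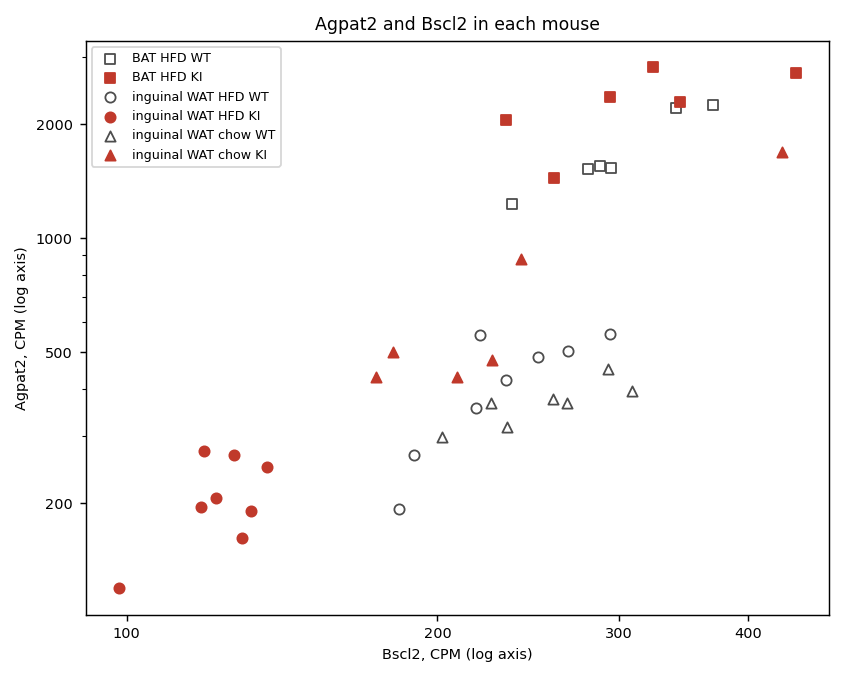
Agpat2 (y axis) against Bscl2 (x axis) in CPM on log axes, 1 point per mouse, with squares for BAT on HFD, circles for inguinal WAT on HFD, triangles for inguinal WAT on chow, open grey for WT and filled red for KI. The 8 KI mice of inguinal WAT on HFD form the lower left of the plot (Bscl2 98.4 to 137 CPM). The chow-fed KI mouse at 1689.6 CPM of Agpat2 is at 431 CPM of Bscl2.

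Diet itself was tested within each genotype in the same fit, and these tests share their samples with the interaction. In WT mice 3 of the 10 genes differed between diets, where 28.2% of genes were called either way and 15.2% lower on HFD. All 3 were lower on HFD, Gpat4 by 1.75-fold (log2 fold change -0.80), Dgat1 by 1.5-fold (-0.58) and Agpat3 by 1.29-fold (-0.37). The Dgat1 call was lost without chow-fed WT mouse 5 (adjusted p = 0.0138), the highest of its group at 372 CPM, and without the libraries with other markers. Agpat2 (0.19, 95% interval -0.34 to 0.72) and Bscl2 (-0.13, -0.43 to 0.16) were not called in WT mice.

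In KI mice 9 of the 10 genes were lower on HFD, where 15.4% of genes were called lower and 30.6% either way. Mogat2 was lower by 3.84-fold, Agpat2 by 3.45-fold, Dgat2 by 2.41-fold and Dgat1 by 2.12-fold, with Gpam and Bscl2 at 1.94-fold, Gpat4 at 1.69-fold, Gpat3 at 1.55-fold and Agpat3 at 1.33-fold. Lpin1 was the exception (log2 fold change -0.25, 95% interval -0.62 to 0.13). The median of the 10 genes was -0.95 in KI and -0.28 in WT mice, against 0.04 over all genes in both. Without chow-fed KI mouse 1, 8 of the 10 genes were called, and the change of Agpat2 was -1.36 (adjusted p = 2.09e-05 from edgeR). The others were then at -1.67 for Mogat2, -1.07 for Dgat2, -0.87 for Dgat1, -0.73 for Gpam and -0.71 for Bscl2. Gpat4 was at -0.65, Gpat3 at -0.62, Agpat3 at -0.30 and Lpin1 at -0.19. Gpat3 lost its call without KI mouse 4 on HFD or KI mouse 1, 2, 5 or 6 on chow, and with no filter on low counts (adjusted p = 0.0145).

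**Figure D4:**
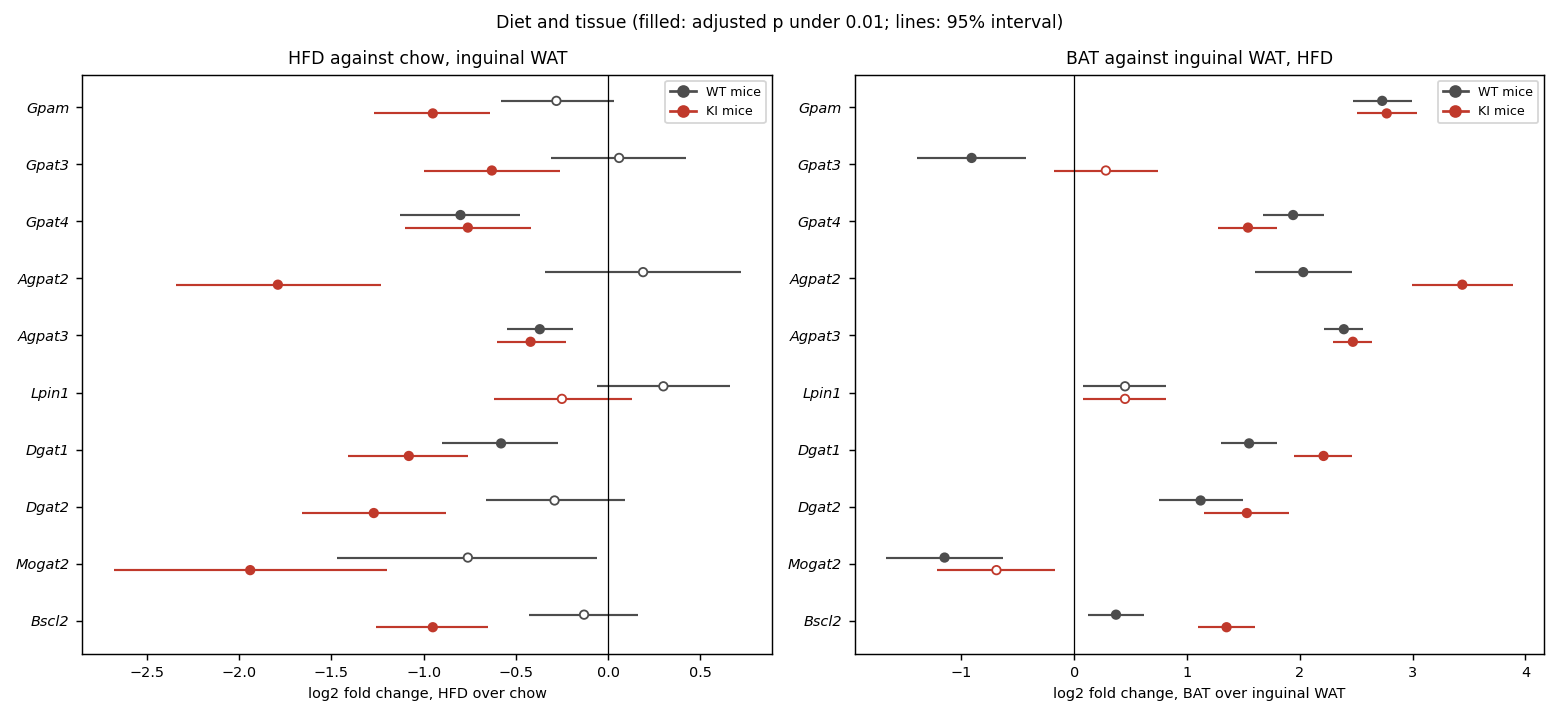
Log2 fold change of HFD over chow in inguinal WAT (left, x axis) and of BAT over inguinal WAT on HFD (right, x axis) for each gene (y axis) in WT (grey) and KI mice (red), with 95% intervals and filled points for an adjusted p below 0.01. On the left 3 grey and 9 red points are filled, and on the right Agpat2 is at 2.03 in WT and 3.44 in KI mice.

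BAT carried more of most of these transcripts than inguinal WAT on the same diet. In WT mice 9 of the 10 genes differed (55.9% of genes were called either way), 7 of them higher in BAT (26.9% of genes). In KI mice 7 differed (59.1% of genes), all higher (28.4% of genes). The median of all genes was -0.09 in WT and -0.12 in KI mice, so changes stand relative to a shift of that size. Gpam was 6.64-fold higher in BAT of WT and 6.84-fold of KI mice, at 423 to 634 CPM in BAT and 62.8 to 97.1 CPM in inguinal WAT of WT mice. Agpat3 was 5.24-fold and 5.53-fold higher, Gpat4 3.83-fold and 2.90-fold, and Dgat1 2.92-fold and 4.61-fold. Dgat2 was 2.18-fold and 2.88-fold higher.

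Agpat2 was 4.09-fold higher in BAT of WT mice and 10.9-fold in KI mice, and Bscl2 1.30-fold and 2.55-fold. The Bscl2 value in WT mice was the weakest of these calls (log2 fold change 0.37, adjusted p = 0.00892 from edgeR) and was kept in 11 of 28 fits without 1 mouse. It was lost with DESeq2 (0.35, adjusted p = 0.0143), with RLE size factors (0.35, adjusted p = 0.016), with no filter on low counts (0.32, adjusted p = 0.03) and in 1 fit of all 6 groups (0.38, adjusted p = 0.0259). Gpat3 and Mogat2 went the other way in WT mice, at 1.88-fold and 2.22-fold lower in BAT, and neither was called in KI mice (Gpat3 0.28, adjusted p = 0.267, and Mogat2 -0.69, adjusted p = 0.0178). Mogat2 was called in KI mice without inguinal WT mouse 7 or KI mouse 2. Lpin1 was not called in either genotype (0.45 in both), although it passed without inguinal WT mouse 4 in WT mice and without BAT KI mouse 4 in KI mice.

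Ordered by mean level over the 6 groups, Agpat2 ran from BAT of KI mice (2282 ± 505 CPM, SD, n = 6) and of WT mice (1714 ± 412 CPM, n = 6) through chow-fed KI (735 ± 498 CPM, n = 6), HFD-fed WT (418 ± 135 CPM, n = 8) and chow-fed WT mice (368 ± 50.4 CPM, n = 7) to HFD-fed KI mice (208 ± 53.6 CPM, n = 8). Each group overlapped the next in this order apart from the last step, where in inguinal WAT every HFD-fed KI mouse lay below every chow-fed WT mouse. Bscl2 spanned less, from 316 ± 74.7 CPM in BAT of KI mice to 123 ± 11.8 CPM in inguinal WAT of HFD-fed KI mice, and the latter was again the one group that lay apart from its neighbour. Gpat3 was highest in chow-fed KI mice (102 ± 21.0 CPM) and lowest in BAT of WT mice (32 ± 9.59 CPM), with every neighbouring pair overlapping.

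Per kb of gene model, Dgat2 was the most abundant member in 5 of the 6 groups, and Agpat2 in BAT of KI mice (1071 ± 237 against 929 ± 285 CPM per kb for Dgat2, overlapping within their SDs). In inguinal WAT of HFD-fed mice Dgat2 was at 465 ± 99.9 CPM per kb in WT and 319.6 ± 70.0 in KI mice, and Mogat2 was last in every group, at 1.30 to 8.22 CPM per kb. Within a step, the share of each enzyme gene was taken per mouse. Agpat2 made up 78.9% ± 6.80 of the 5 Agpat genes in inguinal WAT of HFD-fed WT mice and 62.7% ± 6.07 in KI mice (SD, n = 8 each), while Agpat1 went from 10.5% ± 3.36 to 19.9% ± 3.24. On chow Agpat2 made up 76.2% ± 1.83 in WT and 81.6% ± 5.68 in KI mice.

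For the first acylation, Gpam held 56.2% ± 2.82 of the 4 genes in BAT of WT mice and 27.6% ± 2.74 in inguinal WAT of HFD-fed WT mice, where Gpat3 held the largest share (40.5% ± 6.69). The Gpat3 share in BAT was 6.79% ± 2.03 in WT and 16.2% ± 6.05 in KI mice (SD, n = 6 each). Lpin1 held 71.0% to 83.4% of the lipin genes on average in every group, and Dgat2 81.8% to 89.5% of the Dgat pair. These shares were computed after the levels had been seen and are given as a description.

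**Figure D5:**
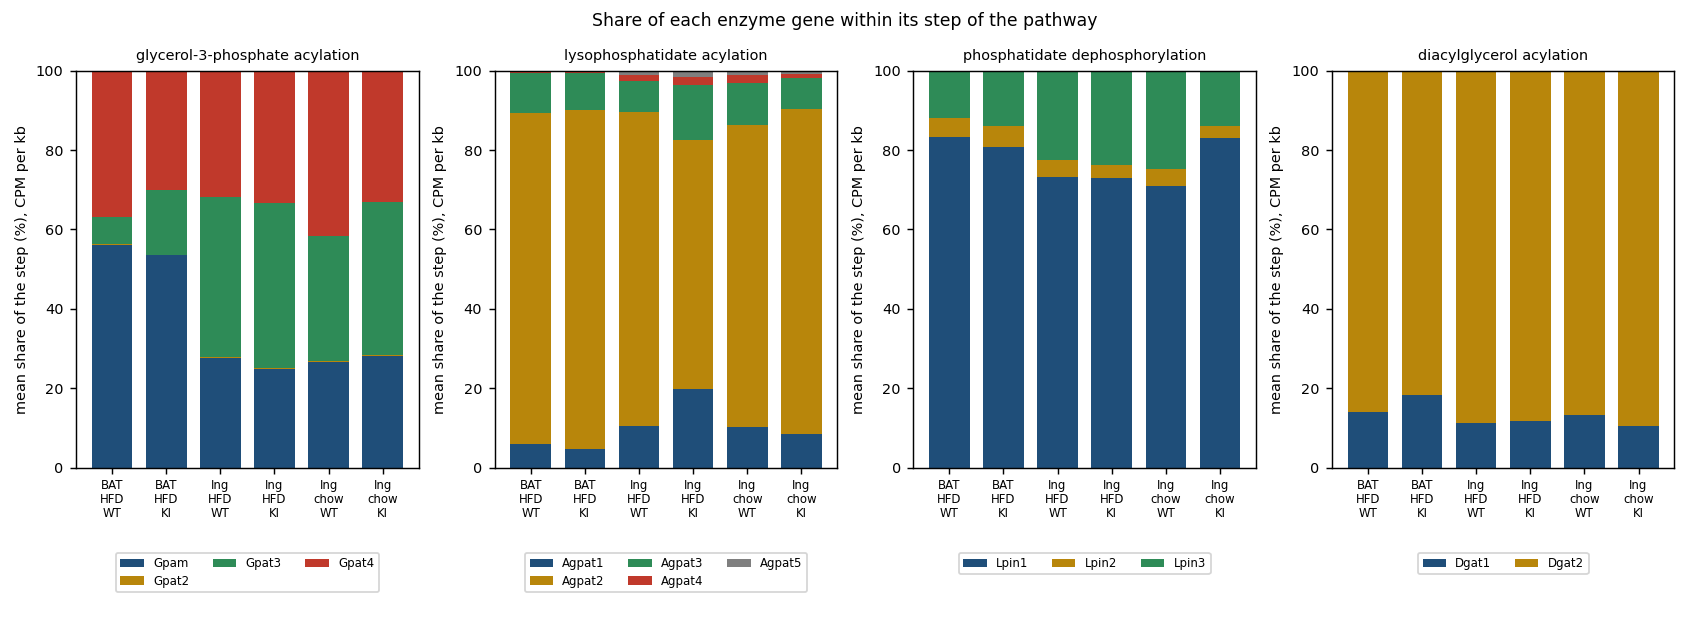
Mean share of each gene (y axis, percent of the summed CPM per kb of its step) in 6 groups (x axis, Ing for inguinal WAT) for 4 steps of triglyceride synthesis. Agpat2 takes 62.7% of its step in inguinal WAT of HFD-fed KI mice, the lowest of the 6 groups, and Gpam is the largest share of the first acylation in BAT alone.

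Other genes of the pathway were counted from lists, beside 6.21% of all genes called higher and 5.24% called lower on HFD in inguinal WAT, 11.5% either way. On chow 3.23% and in BAT 1.83% of all genes were called either way. With at most 3 called genes in each of these lists, they are given as single values, and no list was tested as a whole. Of 17 further genes of triglyceride synthesis, 16 were tested on HFD in inguinal WAT, with 1 called higher and 2 lower and a median log2 fold change of -0.05. Agpat1 was higher (0.33, from 72.0 ± 5.84 to 90.1 ± 12.4 CPM, adjusted p = 0.00592 from edgeR), opposite to Agpat2 of the same step. Gpd1 and Gk, both of which make glycerol-3-phosphate, were lower, Gpd1 from 875 ± 199 to 610.05 ± 102 CPM (-0.51, adjusted p = 0.00950) and Gk from 11.4 ± 2.08 to 8.38 ± 0.977 CPM (-0.44, adjusted p = 0.00904). On chow Agpat1 was the 1 gene called of 15 tested (0.37, adjusted p = 0.00988), and in BAT none of 15 was called by edgeR, with 5 at an unadjusted p below 0.05.

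Among 18 genes of the phospholipid branch, which draws on the same phosphatidate and diacylglycerol, 17 were tested on HFD in inguinal WAT. Of these, 1 was called higher and 1 lower, beside 6.21% and 5.24% of all genes. Crls1, cardiolipin synthase, was higher (0.55, adjusted p = 0.00230 from edgeR), and Pcyt2 of phosphatidylethanolamine synthesis was lower (-0.50, adjusted p = 0.00103). On chow Cds1, which turns phosphatidate into CDP-diacylglycerol, was lower (-0.54, adjusted p = 0.00529), and in BAT choline kinase Chka was higher (1.21, adjusted p = 0.00954). Of 11 lipogenic regulators, Mlxipl (ChREBP) was higher on HFD in inguinal WAT (0.54, adjusted p = 0.00448) and Insig1, which retains SREBP in the endoplasmic reticulum and is itself an SREBP target, was lower (-2.10, from 177 ± 86.2 to 41.0 ± 6.95 CPM, adjusted p = 2.04e-05). None of the 11 was called on chow or in BAT by edgeR, with 4 at an unadjusted p below 0.05 in each.

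Of 12 other genes linked to lipodystrophy, 2 were called on HFD in inguinal WAT, where 11.5% of all genes were called either way. Both were higher, as were 6.21% of all genes. They were Lipe, hormone-sensitive lipase (0.54, from 1792 ± 239 to 2587 ± 383 CPM, adjusted p = 0.00134 from edgeR), and Akt2 (0.40, adjusted p = 0.00984). None was called on chow or in BAT by edgeR, with 3 and 4 at an unadjusted p below 0.05. So of the 3 lipodystrophy genes among the members, Agpat2 and Bscl2 were lower on HFD and Lpin1 was not called.

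Mice of one group also differed among themselves, and the genes most like each member were taken from log2 CPM centred on the group mean over 41 samples and 9875 genes with a mean of 10 CPM or more. Agpat2 varied most closely with Tmem120a (r = 0.84), Dgat1 (r = 0.84) and Pcx (r = 0.81), and Bscl2 with Mpc2 (r = 0.85), Gde1 (r = 0.83) and Agpat2 (r = 0.81). Agpat2, Dgat1 and Bscl2, the 3 genes called lower in inguinal WAT on HFD, were thus among the closest to each other. Within groups the r of Agpat2 and Bscl2 ran from 0.63 in inguinal WAT of HFD-fed KI mice to 0.97 in BAT of WT mice (n = 6 to 8). That of Agpat2 and Dgat1 ran from 0.36 in BAT of WT mice to 0.93 in chow-fed KI mice, and that of Dgat1 and Bscl2 from 0.34 to 0.97 in the same groups. These values share libraries and depth and are a description.

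Other members had other neighbours. Gpam was closest to Acat2 (r = 0.76), Agpat3 to Uck1 (r = 0.84), Lpin1 to Car5b (r = 0.78) and Dgat2 to Slc27a4 (r = 0.69). Gpat3 was closest to Cdc27 (r = 0.73) and Cebpg (r = 0.72), and had an r of 0.05 with Bscl2, 0.20 with Agpat2 and 0.58 with Lpin1. In inguinal WAT the neighbours on chromosome 7, Dgat2 and Mogat2, had an r of 0.89 in HFD-fed WT and 0.76 in HFD-fed KI mice. Of the latter, mouse 2 was lowest for both genes (491 CPM of Dgat2 and 1.89 CPM of Mogat2). Mouse 1 was next lowest for Dgat2 (949 CPM) but highest for Mogat2 (5.19 CPM). The 0.76 therefore does not show that the other mice of that group varied together, and r without mouse 2 was not computed. On chow r was 0.28 in WT and 0.87 in KI mice. In BAT, where Mogat2 had at most 27 counts, it was -0.27 in WT and -0.32 in KI mice.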

How the data were processed

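Per the authors, cutadapt trimming was followed by STAR alignment to GRCm38, SAMtools and featureCounts per gene. Versions, annotation and strand setting are not given in the sources used here. The deposited values are raw counts, 1 column per mouse and 1 table per tissue and diet. In inguinal WAT on HFD each column is 1 mouse, shared by its 2 technical libraries per the labels. Of 54838 entries, 1884 without counts and repeated names were set aside, which left 52853 genes.

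Counts were tested with edgeR 4.0.16 (R 4.3.3) by quasi-likelihood after TMM scaling and filterByExpr, with 1 fit per comparison and Benjamini-Hochberg adjustment over all genes tested. A gene was called at an adjusted p below 0.01. The standard error is the log2 fold change divided by the square root of F. DESeq2 1.42.0, RLE size factors, no filter, a minimum of 10 counts, removal of 37 mitochondrially encoded genes, a replicate block, 1 fit of all 6 groups, a threshold of 0.05 and leaving out each mouse were the alternatives. Leaving out libraries with markers of other tissues was chosen after seeing the data. The fit was tested on simulated counts. The members, lists and tests were chosen with earlier results of these data known. All 10 members are named, and of each list the genes called between KI and WT mice. No 2 replicates held identical counts over 122 pairs. Depth sets the counting error, and Mogat2, with 12 to 397 counts, is the least precise. The likeness of 1 member is not reported here.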

Additional observations from a re-analysis of the deposited data

Results flagged for a closer look

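Some mice lay far from the rest of their group by Dixon's test, which flags about 1 in 20 groups by chance, and 8 of the 60 groups of gene and condition were so marked. Chow-fed KI mouse 1 was the highest of its group for Agpat2 (1689.6 CPM, next 883), Agpat3 (307 CPM, next 223) and Bscl2 (431 CPM, next 241). HFD-fed KI mouse 2 was the lowest in inguinal WAT for Dgat1 (89.7 CPM, next 124) and Dgat2 (491 CPM, next 949). The others were chow-fed WT mouse 5 for Dgat1 (372 CPM, next 257), HFD-fed WT mouse 7 for Mogat2 (13.1 CPM, next 6.78) and chow-fed WT mouse 4 for Mogat2 (25.2 CPM, next 11.8).

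The KI effect differed by an interaction test for 3 pairs of gene and contrast. For Agpat2 it was -1.97 between HFD and chow in inguinal WAT and 1.41 between BAT and inguinal WAT on HFD, on the log2 scale. For Bscl2 it was 0.98 between BAT and inguinal WAT.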

How the results depend on the processing

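The number of members called depended on the fit. In inguinal WAT on HFD it was 3, against 5 with DESeq2, 1 without the libraries with markers of other tissues and 6 at an adjusted p below 0.05. On chow it was 1, against 2 with DESeq2, 0 with no filter, 0 with the replicate block and 3 in 1 fit of all groups. In BAT it was 0, against 1 with DESeq2, without those libraries, in 1 fit and at 0.05. For the difference between diets it was 1, against 3 with DESeq2 and at 0.05 and 0 with the replicate block and without those libraries. That block joined different animals across the diets, so it is no check on this difference. For the difference between tissues it was 2, against 4 with DESeq2 and at 0.05, 0 without those libraries and 1 in 1 fit. Leaving out 1 mouse gave 2 to 4, 0 to 1, 0 to 1, 1 to 2 and 2 to 4 in these 5 comparisons. The cause was not tested.

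Values near 0 changed sign. With the replicate block Dgat1 on chow was -0.02. Without the libraries with other markers, Gpam (0.03), Lpin1 (-0.04) and Bscl2 (-0.04) in BAT, Gpat4 between diets (-0.0036), Gpat3 on HFD against chow in WT mice (-0.05) and Lpin1 between tissues (-0.20) did, and the last was -0.01 with no filter. Leaving out 1 mouse, the ranges were -0.02 to 0.16 for Gpat3 in inguinal WAT on HFD, -0.11 to 0.19 for Dgat1 and -0.30 to 0.0023 for Bscl2 on chow, and -0.10 to 0.04 for Gpam, -0.02 to 0.19 for Lpin1 and -0.07 to 0.11 for Bscl2 in BAT. They were -0.12 to 0.16 for Gpat4 and -0.10 to 0.07 for Agpat3 between diets, -0.04 to 0.14 for Gpat3 on HFD against chow in WT mice, and -0.02 to 0.13 for Gpam and -0.11 to 0.11 for Lpin1 between tissues.

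The deviations of mice with the same number had a correlation over 0.1 in 2 of 8 pairs in inguinal WAT on HFD. On chow 2 of 6 pairs did so, and in BAT 3 of 6. The values ran from -0.244 to 0.67, from -0.274 to 0.177 and from -0.078 to 0.424. This cannot decide whether the numbers pair the mice, because mice with unlike numbers were not compared. In fits of both diets the block joined mice of the same genotype and number across the diets. Per the study's methods each mouse was allocated to HFD or chow, so these were different animals. The block is therefore no check on contrasts between diets, and its values for them are given as computed. Over all genes the block called 363 in BAT, against 243 in the main fit. Under the block, from edgeR, Agpat2 (-0.96, adjusted p = 0.0124) and Dgat1 (-0.43, adjusted p = 0.0207) in inguinal WAT on HFD were not called. Gpat3 on chow (0.78, adjusted p = 0.0186) and the Agpat2 difference between diets (-1.80, adjusted p = 0.0588) were not called either. Nor were Gpat3 on HFD against chow in KI mice (-0.62, adjusted p = 0.0256) and Bscl2 between BAT and inguinal WAT in WT mice (0.27, adjusted p = 0.0912). Dgat2 in inguinal WAT on HFD gained a call under the block (-0.54, adjusted p = 0.00757). Over all genes, calls went from 1886 to 1242 in 1 fit on HFD, from 472 to 1107 (DESeq2), 102 (block) and 1088 (1 fit) on chow, and from 243 to 717 (DESeq2) and 834 (1 fit) in BAT. They went from 110 to 409 (DESeq2), 12 (block) and 50 (without those libraries) between diets, from 5332 to 3488 (block) for HFD against chow in KI mice, and from 485 to 848 (DESeq2), 180 (block) and 263 (without those libraries) between tissues.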
